A study of Bos taurus with 2 samples.

Results

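The R-spondin pathway was followed through single-cell RNA profiles of bovine embryos recovered by flushing at day 25 of development, in 4 genes: the ligands RSPO2 and RSPO3, the receptor LGR5 and the ubiquitin ligase ZNRF3. They were taken as named rows of the count table, 4 of its 17846 genes. None of them was picked by a rule on its level, but earlier results of these data were known. The embryos were chimeras into which bovine embryonic stem cells had been incorporated. Minced tissue was digested (papain and DNase), strained and sorted, and the sorted cells were loaded for 10x Genomics 3′ v3.1 droplet sequencing. What the sort selected, and the genotype and number of the donor-derived cells were not stated in the labels. The 2 samples, replicates 1 and 2, form 1 group with 1 label, so every comparison is between cells of the same suspensions. No label states whether the samples are from different embryos. The p-values measure only how differences between cell groups varied between these 2 samples, with pooling over genes. That variation may be technical.

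R-spondins are secreted proteins that strengthen WNT signalling. They bind a receptor of the LGR family (LGR4, LGR5 and LGR6) together with ZNRF3 or its relative RNF43, which are membrane ubiquitin ligases that remove Frizzled WNT receptors from the cell surface. With the ligase occupied, Frizzled receptors stay at the surface. In mouse and chick embryos R-spondin genes are known from the dorsal midline of the neural tube (the roof plate) and from mesenchyme. LGR5 is best known as a stem cell marker of the adult mouse intestine, and ZNRF3 is itself induced by WNT signalling, so it acts as a feedback inhibitor.

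The counts are UMIs: each captured transcript carries a random tag and is counted 1 time. Cells with at least 500 detected genes were kept, 1939 in replicate 1 and 2420 in replicate 2, with median UMIs of 4987 and 5704 per cell. Kept cells were gated on genes other than the members. The neuron gate took cells with UMIs of at least 2 of the neuron genes DCX, STMN2 and ELAVL4 (474 and 537 cells). Of these only 261 and 281 held no SOX2 UMI, so the neuron gate is not a SOX2-negative group. The collagen VI gate took cells with at least 2 UMIs of COL6A1, COL6A2 and COL6A3 together (40 and 77 cells). The SOX2 gate took the other cells with a UMI of SOX2, a transcription factor of neural progenitors (791 and 1097 cells). The rest were ungated (621 and 689 cells), and 13 and 20 cells that met clashing criteria were left out.

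The neuron and collagen VI gates were checked on markers that did not define them. The 9 neuron markers summed to 1264 and 1706 CPM (counts scaled to the same total for every summed gate) in neuron-gated cells, against 228 and 187 CPM in SOX2-gated cells and 13.5 and 21.5 CPM in collagen VI-gated cells. The 9 mesenchyme markers, led by the fibrillar collagen genes COL1A1 and COL1A2, summed to 32202 and 33134 CPM in the collagen VI gate and to at most 324 CPM in the other gates. The 6 neural progenitor markers other than SOX2 did not set the SOX2 gate apart as a sum, at 3044 and 3542 CPM there, 2225 and 2485 CPM in the neuron gate and 3119 and 3800 CPM in the collagen VI gate. Gene by gene, 5 of the 6 were called higher in SOX2-gated than in collagen VI-gated cells, and VIM was called lower. All 6 were called higher than in ungated cells. Against the neuron gate NES, HES5 and VIM were called higher, and PAX6 and FABP7 lower. As the markers were mixed against the neuron gate, the SOX2 gate is named by its rule alone. The 12 erythroid markers summed to 804 and 7112 CPM in it. UMIs of HBZ, a globin gene, were found in 84.3% and 85.3% of SOX2-gated cells and those of the collagen gene COL1A1 in 10.49% and 12.4%, so a share of cells with a UMI is not a share of expressing cells. The collagen VI gate also held 16549 and 16733 CPM of the apolipoprotein APOA1. Gates differed in depth and in ribosomal protein counts. Median UMIs were 5609 and 6675 in SOX2-gated cells, 6932.5 and 7285 in neuron-gated cells, 9174 and 11767 in collagen VI-gated cells and 3033 and 2897 in ungated cells. Median ribosomal shares were 4.18% and 7.33%, 6.08% and 10.4%, 21.1% and 26.5%, and 3.41% and 3.24% in the same order, and their part in the results was not tested.

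RSPO2 was a gene of few cells with high counts, mostly in the SOX2 gate. Its level was 43.4 and 43.5 CPM in SOX2-gated cells of replicates 1 and 2, 7.33 and 23.6 CPM in neuron-gated cells, 20.6 and 19.1 CPM in ungated cells, and 2.69 and 0 CPM in collagen VI-gated cells. The SOX2 gate was above every other gate in both replicates. In the edgeR fit RSPO2 was 2.52-fold higher in SOX2-gated than in neuron-gated cells (log2 1.33, SE 0.37, adjusted p = 0.0277). The size rested on both libraries, at a log2 value of 0.75 without replicate 1 and 2.39 without replicate 2. The call was lost without the deepest 5% of cells (adjusted p = 0.109) and within cells of at least 10% ribosomal protein counts (adjusted p = 0.299), at log2 values of 1.23 and 1.64. Against the collagen VI gate there were 540 UMIs of RSPO2 in SOX2-gated cells and 1 UMI, in replicate 1, in collagen VI-gated cells. The ratio of counts per total was 52.6, with an exact 95% counting interval of 9.40 to 2081 (adjusted p = 0.0286 in edgeR). This interval treats UMIs as independent, but 91.9% and 90.9% of those in the SOX2 gate lay in 14 and 20 cells. It is therefore too narrow for a difference between cells. The edgeR call was also lost without the deepest cells and within ribosomal-rich cells (adjusted p = 0.206 and 0.196), although the log2 values were 10.03 and 9.31. These settings left 25 and 44, and 27 and 64, collagen VI-gated cells in replicates 1 and 2. The neuron gate, with 116 UMIs, did not differ from the collagen VI gate past the threshold (adjusted p = 0.146), nor did SOX2-gated cells from ungated cells (log2 1.11, SE 0.37, adjusted p = 0.0931). The difference from ungated cells passed without a filter on low counts and under each stricter SOX2 or neuron gate that was run. Only the SOX2 gate of at least 2 UMIs changed the cells compared. The stricter neuron gates left the SOX2 and ungated counts as they were (log2 1.10 and 1.09). There only the shared fit differed, so these calls are no further support, and the p-value was unstable.

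The share of cells with an RSPO2 UMI was small in every gate. It was 3.41% and 3.10% in the SOX2 gate (27 of 791 and 34 of 1097 cells), 1.90% and 3.35% in the neuron gate, 2.58% and 2.03% among ungated cells and 2.50% and 0% in the collagen VI gate. Cells of at least 2% globin or placental counts held no RSPO2 UMI (0 of 20 and 0 of 32 cells, median UMIs of 15523.5 and 12714), which by exact 95% intervals allows shares of up to 16.8% and 10.9%. Thinned to 2000 UMIs per cell, so that depth was equal, the shares were 2.62% and 2.05% in the SOX2 gate and 0.441% and 1.36% in the neuron gate. Thinning left out 65 and 73 SOX2-gated and 20 and 23 neuron-gated cells that were too shallow.

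RSPO3 was most abundant in collagen VI-gated cells. Its level was 307 and 303 CPM there, 141 and 160 CPM in neuron-gated cells, 124 and 141 CPM in SOX2-gated cells and 76.6 and 82.8 CPM in ungated cells. The collagen VI gate stood clear of the others, while the ranges of the SOX2 and neuron gates met at 141 CPM. RSPO3 was 3.85-fold higher in collagen VI-gated than in SOX2-gated cells (log2 of SOX2 over collagen VI -1.94, SE 0.12, adjusted p = 6.26e-17, edgeR) and 3.09-fold higher than in neuron-gated cells (log2 -1.63, SE 0.12, adjusted p = 1.38e-14). These folds carry the TMM scaling of edgeR, whose factors were 0.733 and 0.660 for the collagen VI sums and 1.20 and 1.14 for the SOX2 sums. On plain library totals the folds were 2.27 and 2.00, still past the threshold (adjusted p = 4.60e-12 and 6.35e-10).

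RSPO3 UMIs were present in 80.0% and 75.3% of collagen VI-gated cells (32 of 40 and 58 of 77), against 19.1% and 19.2% of SOX2-gated cells, 18.99% and 21.97% of neuron-gated cells and 14.3% and 13.4% of ungated cells. Cells rich in globin or placental counts gave 5.00% and 6.25% (1 of 20 and 2 of 32 cells) at a greater depth. At 2000 UMIs per cell the collagen VI share was 45.9% and 40.5%, with exact 95% intervals of 29.5 to 63.1% and 29.3 to 52.6%. The SOX2 share was then 11.02% and 11.9% and the neuron share 11.2% and 14.6%. The collagen VI gate thus remained above the others at equal depth, by a smaller margin.

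Between the SOX2 and neuron gates the RSPO3 difference was slight. The fitted level was 1.25-fold higher in neuron-gated than in SOX2-gated cells (log2 -0.32, SE 0.09, adjusted p = 0.00632). Leaving out the replicate block (adjusted p = 0.0802), scaling by library totals (log2 -0.18, adjusted p = 0.116) or requiring all 3 neuron genes (log2 -0.20, adjusted p = 0.145) ended the call. Leaving out cells with both SOX2 and neuron genes turned its direction (log2 0.09, adjusted p = 0.730). RSPO3 was 1.63-fold higher in SOX2-gated than in ungated cells (log2 0.71, SE 0.11, adjusted p = 3.25e-06).

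LGR5, the receptor, had the opposite pattern to RSPO3 across the SOX2, neuron and collagen VI gates. Its level was 58.1 and 46.9 CPM in SOX2-gated cells, 49.2 and 32.8 CPM in neuron-gated cells, 60.3 and 61.0 CPM in ungated cells, and 2.69 and 3.58 CPM in collagen VI-gated cells. Within each replicate the SOX2 gate was above the neuron gate, although their ranges overlapped, and the collagen VI gate lay far below both. The collagen VI gate held 4 UMIs of LGR5 in all, in 4 cells, against 637 in the SOX2 gate and 289 in the neuron gate. Per total counts the ratios were 15.5 (exact 95% counting interval 6.03 to 57.1) and 12.2 (4.70 to 45.0), and edgeR called both (adjusted p = 1.57e-06 and 1.15e-05). The fitted log2 value of neuron over collagen VI was 2.93, and it was 2.54 without replicate 1 and 3.62 without replicate 2. SOX2-gated cells did not differ from neuron-gated cells past the threshold (log2 0.23, 95% interval -0.05 to 0.52, adjusted p = 0.185). With library totals, or with all 3 neuron genes required, LGR5 was called higher in the SOX2 gate (log2 0.37 and 0.58, adjusted p = 0.0272 and 0.00772), while within ribosomal-rich cells its log2 value was below 0. Against ungated cells the difference was also below the threshold (log2 -0.25, 95% interval -0.53 to 0.04, adjusted p = 0.226), but within cells of at least 10% ribosomal protein counts LGR5 was lower in the SOX2 gate (log2 -1.29, adjusted p = 0.000737).

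LGR5 UMIs were found in 18.6% and 19.3% of SOX2-gated cells, 16.9% and 15.5% of neuron-gated cells, 14.2% and 14.5% of ungated cells and 2.50% and 3.90% of collagen VI-gated cells. At 2000 UMIs per cell these shares were 11.02% and 9.86%, 8.37% and 7.20%, 10.4% and 10.2%, and 0% and 1.35%. Cells rich in globin or placental counts, which were deeper, gave 40.0% and 40.6% before thinning and 11.8% and 14.3% at 2000 UMIs. Positive cells held a median of 1 LGR5 UMI, so a cell without a UMI need not lack the transcript.

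ZNRF3, the ligase that R-spondins inhibit, was at its highest CPM in SOX2-gated and ungated cells. Its level was 296 and 273 CPM in SOX2-gated cells, 287 and 258 CPM in ungated cells, 183 and 165 CPM in neuron-gated cells and 45.7 and 39.4 CPM in collagen VI-gated cells. The SOX2 and ungated ranges overlapped, and the other gates were lower without overlap. ZNRF3 was 1.49-fold higher in SOX2-gated than in neuron-gated cells (log2 0.58, SE 0.09, adjusted p = 1.49e-06, edgeR). It was 3.98-fold higher in SOX2-gated (log2 1.99, SE 0.18, adjusted p = 3.38e-12) and 2.67-fold higher in neuron-gated than in collagen VI-gated cells (log2 1.42, SE 0.19, adjusted p = 4.48e-08). On library totals the latter folds were 6.75 and 4.12. SOX2-gated and ungated cells differed by a log2 value of 0.04 (95% interval -0.14 to 0.22, adjusted p = 0.799), but within ribosomal-rich cells ZNRF3 was called higher in the SOX2 gate (log2 0.97, adjusted p = 5.03e-05).

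ZNRF3 UMIs were found in 69.5% and 72.9% of SOX2-gated cells, 56.5% and 49.0% of neuron-gated cells, 49.6% and 49.6% of ungated cells and 32.5% and 31.2% of collagen VI-gated cells. At equal depth the shares were 45.3% and 39.6%, 31.1% and 27.0%, 44.7% and 41.6%, and 10.8% and 14.9%. Cells rich in globin or placental counts, which were deeper, gave 10.0% and 25.0% before thinning.

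**Figure D1:**
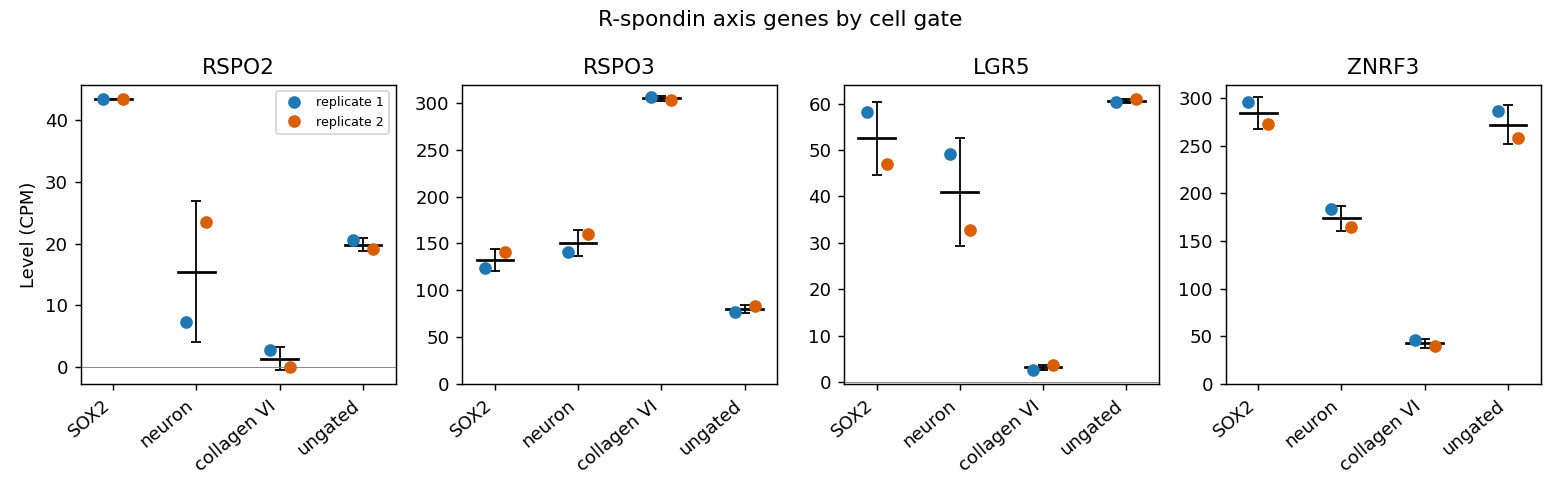
Levels of RSPO2, RSPO3, LGR5 and ZNRF3 in CPM by gate; points are the replicates and bars are the mean ± SD (n = 2). RSPO3 is highest in the collagen VI gate (307 and 303 CPM), where LGR5 and ZNRF3 are lowest, and RSPO2 is highest in the SOX2 gate.

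Counts of called members are read against all 13133 genes tested. Between the SOX2 and neuron gates 3 of the 4 members passed, where 43.4% of all genes did. Between the SOX2 and collagen VI gates all 4 passed against 50.2%, between the neuron and collagen VI gates 3 against 49.1%, and between SOX2-gated and ungated cells 1 against 21.7%. The gates differed in a large part of the transcriptome, so these counts by themselves set the members little apart. On library totals the share of called genes that were higher in the first gate moved from 49.8% to 64.4% (SOX2 against neuron), from 51.5% to 79.4% (SOX2 against collagen VI) and from 51.8% to 76.3% (neuron against collagen VI). The median log2 change of all genes moved from 0.02 to 0.16, from 0.19 to 0.95 and from 0.17 to 0.79. A change of scaling shifts every gene of a contrast by nearly the same amount. Positions relative to these medians are therefore alike under both scalings by construction, which is no check on the folds or calls. In the SOX2 against collagen VI contrast RSPO3 stood at -2.14 relative to the median gene on the log2 scale with either scaling, ZNRF3 at 1.80 and LGR5 at 2.97. In the SOX2 against neuron contrast RSPO3 stood at -0.34. Of all genes 21.6% were higher and 21.8% lower in the SOX2 than in the neuron gate. The same shares were 25.8% and 24.3% for SOX2 against collagen VI, 25.4% and 23.6% for neuron against collagen VI and 11.1% and 10.6% for SOX2 against ungated cells.

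**Figure D2:**
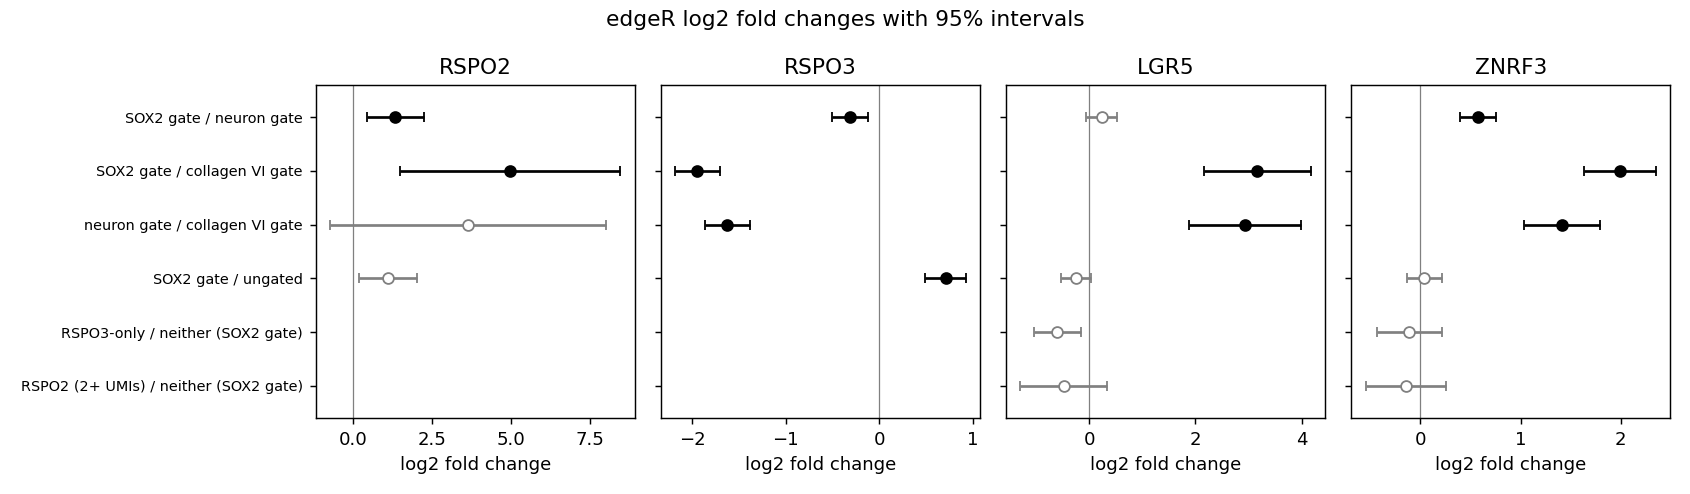
Log2 fold changes of the members from edgeR with 95% intervals for the gate contrasts and the ligand contrasts; filled black points passed an adjusted p of 0.05. RSPO3 lies on the collagen VI side and LGR5 and ZNRF3 on the SOX2 and neuron side of the collagen VI contrasts, and no ligand contrast gave a called LGR5 or ZNRF3 difference.

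Relatives of the members were sparse apart from LGR4, a broadly used R-spondin receptor. RSPO4 had no count, LGR6 stood at 2.07 CPM or less in the SOX2 gate, and RNF43 at 11.6 and 10.2 CPM there. LGR4 was 78.6 and 62.6 CPM in SOX2-gated cells, 89.5 and 76.6 CPM in neuron-gated cells, 72.7 and 83.5 CPM in collagen VI-gated cells and 90.6 and 87.5 CPM in ungated cells. Collagen VI-gated cells, nearly without LGR5, thus held LGR4 at CPM levels within the range of the other gates. Of the 3 relatives tested, LGR4 was called lower in SOX2-gated than in neuron-gated cells (log2 -0.38, adjusted p = 0.0105) and than in ungated cells (log2 -0.37, adjusted p = 0.0248). On library totals the first of these calls was lost (log2 -0.24, adjusted p = 0.0911). The call of LGR4 against the collagen VI gate (log2 -0.98, adjusted p = 4.59e-05) was not made on library totals (log2 -0.22, adjusted p = 0.287), and the log2 value of the neuron over the collagen VI gate turned from -0.60 to 0.02. Relative to the median gene, LGR4 stood at -1.17 in the SOX2 against collagen VI contrast under both scalings, which is so by construction and does not restore the call. RSPO1, a ligand with 147 UMIs in the SOX2 gate and 1 in the collagen VI gate, was the other relative called in that contrast (adjusted p = 0.0138).

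WNT receptors and WNT target genes were followed as lists. Of the 10 Frizzled and LRP genes tested, 4 were higher and none lower in SOX2-gated than in neuron-gated cells, with a list median log2 of 0.67 against 0.02 for all genes. They included FZD4 (log2 1.65) and FZD10 (log2 0.90). Against the collagen VI gate 3 were higher, with FZD10 (log2 4.12) and FZD3 (log2 3.27) in front, and FZD4 and LRP5 were lower. In CPM FZD4 was lower in both replicates, while LRP5 stood at 30.2 and 21.8 against 37.7 and 20.3 CPM, in no common order. FZD3 fell from 251 and 223 CPM in SOX2-gated cells to 18.8 and 11.9 CPM in collagen VI-gated cells. Against ungated cells 3 were higher, among them FZD10 (log2 1.34) and FZD9 (log2 1.18).

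Of the 9 WNT target genes tested, 6 were higher in SOX2-gated than in neuron-gated cells, led by TCF7 (log2 1.15), and 2 were lower. The cyclin CCND1 was among the latter (log2 -1.28, 97.2 and 106 against 223 and 227 CPM). Against the collagen VI gate 2 were called higher and 5 lower in SOX2-gated cells, under a TMM scaling that raises the collagen VI side relative to CPM. AXIN2, 1 of the 5, stood at 31.2 and 31.0 against 43.1 and 26.3 CPM, so its order differed between replicates. NKD2 was close, at 40.5 and 46.1 against 53.8 and 50.1 CPM. The lower ones included the feedback inhibitors APCDD1, at 82.5 and 63.4 against 428 and 401 CPM (log2 -3.29, adjusted p = 3.27e-23), and NKD1, at 45.7 and 39.7 against 159 and 149 CPM (log2 -2.62, adjusted p = 9.96e-16). ZNRF3, also a feedback inhibitor, was lower in the same collagen VI-gated cells. Between the neuron and collagen VI gates 2 targets were higher and 4 lower, and between SOX2-gated and ungated cells CCND1 alone was called (log2 0.52).

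RSPO2 and RSPO3 overlapped in single cells far more than the product of their shares gives. RSPO2 was detected in 53 and 67 kept cells and RSPO3 in 366 and 489. Cells with both numbered 33 and 39, where the product of shares gives 10.0 and 13.5. They were 62.3% and 58.2% of the RSPO2 cells and 9.02% and 7.98% of the RSPO3 cells, with odds ratios of 7.70 and 5.89. In SOX2-gated cells the overlap was 19 of 27 and 25 of 34 RSPO2 cells (70.4% and 73.5%), and 12.6% and 11.8% of the RSPO3 cells, with odds ratios of 11.4 and 13.1. In neuron-gated cells 5 of 9 and 8 of 18 RSPO2 cells held RSPO3. RSPO2 cells are thus mostly nested within RSPO3 cells, while most RSPO3 cells hold no RSPO2 UMI. At equal depth the overlap in the SOX2 gate was 15 of 19 and 17 of 21 RSPO2 cells (78.9% and 81.0%). Cells of 1 library are not replicates, so odds ratios are given without a test.

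The overlap went with the number of RSPO2 UMIs in a cell. Among cells without RSPO2, 17.7% and 19.1% held RSPO3. With 1 RSPO2 UMI the share was 42.9% and 30.4%, with 2 to 4 UMIs it was 58.3% and 42.1%, and with at least 5 it was 85.0% (17 of 20 cells) and 96.0% (24 of 25 cells). The RSPO3 level was 98.6 and 119 CPM in cells without RSPO2 and 1514 and 1511 CPM in cells with at least 5 RSPO2 UMIs. The ZNRF3 level of the same cells was 314 and 188 against 249 and 229.8 CPM, with no common direction. The cells with at least 5 RSPO2 UMIs were deeper, with median UMIs of 7927 and 9213 against 4935 and 5654, and the part of depth was not tested. Their SOX2 level was 414 and 510 CPM, against 242 and 248 CPM in cells without RSPO2. Most RSPO2 transcripts came from these few cells, which held 82.3% and 85.0% of all RSPO2 UMIs, up to 34 and 43 in a single cell. For RSPO3, cells with at least 5 UMIs held 66.6% and 71.7% of its UMIs, and for LGR5 22.6% and 15.4%.

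**Figure D3:**
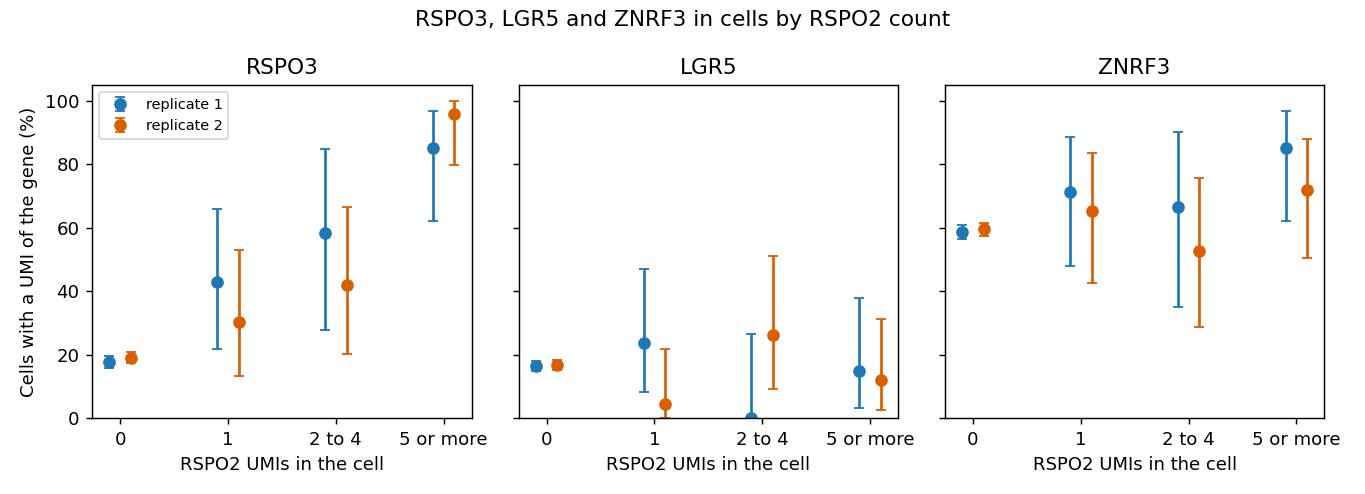
Share of kept cells with a UMI of RSPO3, LGR5 or ZNRF3 by the number of RSPO2 UMIs in the cell, per replicate, with exact 95% intervals for counting error. The RSPO3 share is 17.7% and 19.1% without RSPO2 and 85.0% and 96.0% at 5 or more RSPO2 UMIs, the LGR5 share is 16.4% and 16.7% against 3 of 20 and 3 of 25 cells, and the ZNRF3 share is 58.6% and 59.5% against 85.0% and 72.0%.

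The receptor was detected at a lower share in RSPO3 cells than in RSPO3-negative cells of the same gate. Among SOX2-gated RSPO3 cells 13.9% and 18.0% held LGR5, beside 19.7% and 19.6% of SOX2-gated cells without RSPO3 (odds ratios 0.66 and 0.90). In the neuron gate the shares were 11.1% and 10.2% beside 18.2% and 16.9% (odds ratios 0.56 and 0.55). At equal depth the odds ratios stayed under 1, at 0.63 and 0.80 in the SOX2 gate and 0.42 and 0.69 in the neuron gate. RSPO2 cells of the SOX2 gate held LGR5 in 5 of 27 and 4 of 34 cases (odds ratios 0.996 and 0.55). In the neuron gate it was 2 of 9 and 2 of 18 cases (odds ratios 1.42 and 0.68), so RSPO2 cells had no common direction there. Of SOX2-gated LGR5 cells 75.5% and 76.4% held ZNRF3, beside 68.2% and 72.1% of those without LGR5 (odds ratios 1.44 and 1.25). At equal depth these odds ratios were 0.78 and 1.20, so the LGR5 and ZNRF3 relation did not hold its direction in replicate 1.

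A map of the members over unsupervised cell groups located the ligands and the receptor further. Kept cells fell into 25 Leiden clusters, of which 18 had at least 20 cells in each replicate. The members and the listed pathway and marker genes took no part in the clustering, and clusters are called by number and leading genes. Levels over clusters are a description with no test.

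RSPO2 and RSPO3 were both highest in cluster 19, a group of 38 and 70 cells whose leading genes, besides RSPO2 and RSPO3, were the cation channel gene TRPM3, the matrix gene SPARCL1, the potassium channel gene KCNC2, the thyroid hormone carrier TTR, LMX1A and KRT18. RSPO2 reached 549 and 517 CPM there, and the next highest cluster held 58.5 CPM (cluster 9, replicate 1) and 37.5 CPM (cluster 11, replicate 2). RSPO3 reached 1290 and 1344 CPM in cluster 19. With 3.001% and 4.48% of all UMIs, cluster 19 held 63.9% and 74.5% of the RSPO2 UMIs and 31.2% and 41.9% of the RSPO3 UMIs. In it 92.1% and 97.1% of cells held RSPO3, and 17 of 18 and 25 of 26 RSPO2 cells were also RSPO3 cells. In all other cells 16 of 35 and 14 of 41 RSPO2 cells held RSPO3. LGR5 was low in cluster 19, at 8.96 and 17.4 CPM, and ZNRF3 was at 272 and 222 CPM.

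Cluster 19 was 64.8% SOX2-gated and 25.9% neuron-gated, so it weighed on the gate levels. Of the RSPO2 UMIs of the SOX2 gate 71.4% and 76.97% lay in it, and of the RSPO3 UMIs 42.9% and 66.3%. Outside it RSPO2 stood at 12.9 and 10.7 CPM in the SOX2 gate and at 3.16 and 6.67 CPM in the neuron gate. RSPO3 outside it stood at 74.0 and 50.7 CPM in the SOX2 gate and at 95.9 and 120 CPM in the neuron gate. The median ribosomal share of cluster 19 was 22.5%, and its part in these levels was not tested.

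The dorsal and WNT lists moved both ways in cluster 19, while no ventral gene stood higher there in both replicates. The genes described here were chosen after their values were seen. Of 12 dorsal neural tube genes in the table, 6 stood higher than in all other cells in both replicates and 3 lower, PAX3 among the latter (14.9 and 47.8 against 134 and 113 CPM). Of 12 WNT receptor genes 5 stood higher and 4 lower, of 12 WNT target genes 3 higher and 5 lower, and of 10 ventral genes none higher and 7 lower. Of the lower genes ATOH1, OLIG3, FZD7, DKK1, NOTUM and FOXA1 had no count in the cluster and at most 2.12 CPM elsewhere. RSPO1 stood at 146 and 130 CPM, against 5.08 and 2.99 CPM in all other cells, so that 47.1% and 67.2% of its UMIs lay in this cluster. LMX1A, a transcription factor of the roof plate, stood at 239 and 261 against 15.2 and 12.7 CPM. WNT3A, a WNT ligand of the dorsal midline, stood at 230 and 227 against 48.5 and 43.7 CPM. OTX2, a transcription factor of the anterior neural plate, stood at 107 and 79.7 against 9.14 and 7.07 CPM. The WNT receptor FZD10 stood at 95.5 and 98.5 against 16.3 and 12.7 CPM. The feedback gene AXIN2 stood at 47.8 and 50.7 against 24.8 and 23.7 CPM, whereas LEF1, a WNT effector, was lower at 23.9 and 49.2 against 147 and 126 CPM. The ventral midline signal SHH stood at 0 and 5.79 against 43.6 and 53.0 CPM.

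The second highest RSPO3 level was in cluster 12, led by COL1A1, COL1A2 and APOA1, of which 93.5% of cells were collagen VI-gated. RSPO3 stood there at 341 and 321 CPM, in 96.9% and 85.2% of cells, and LGR5 at 0 and 1.31 CPM. The 2 clusters with most RSPO3 per total were therefore unlike in gate, and RSPO2 was at 2.89 and 0 CPM in cluster 12. Among the 18 clusters with at least 20 cells in each replicate, the third place differed, with cluster 13 in replicate 1 (204 CPM) and cluster 6 in replicate 2. Cluster 22, of 6 and 16 cells and outside these 18, held 232 and 249 CPM. The neuron-gated cluster 6, led by EBF1, CRABP1 and DCC, held 164 and 248 CPM of RSPO3 and 0.969 and 2.90 CPM of RSPO2.

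LGR5 was at its highest in other clusters. Cluster 0, led by TEX14, FAM43A and RNF19B, held 134 and 120 CPM, and cluster 10, led by PF4 and mitotic genes such as NDC80 and KIF23, held 93.0 and 132 CPM. RSPO3 was 33.8 and 29.3 CPM in cluster 0 and 45.9 and 28.7 CPM in cluster 10. In cluster 9, led by HES5 and MARCHF3, receptor and ligand were together, with LGR5 at 115 and 70.3 CPM and RSPO3 at 143 and 81.5 CPM. The order of these clusters differed between replicates. ZNRF3 was highest in cluster 13, led by KIF26B and FOXP2 (771 and 604 CPM), ahead of cluster 1 (485 and 403 CPM) and cluster 17 (391 and 577 CPM), which changed places between replicates. Among the 18 clusters with at least 20 cells in each replicate it was lowest in cluster 12, at 31.8 and 24.9 CPM. Over the 18 clusters LGR5 ran against the median ribosomal share of a cluster (r = -0.74 and -0.71), as ZNRF3 did more weakly (-0.45 and -0.42), while RSPO2 (0.22 and 0.18) and RSPO3 (0.32 and 0.37) had positive values. These are correlations over clusters that share libraries, with no test, and the part of the ribosomal share was not tested.

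**Figure D4:**
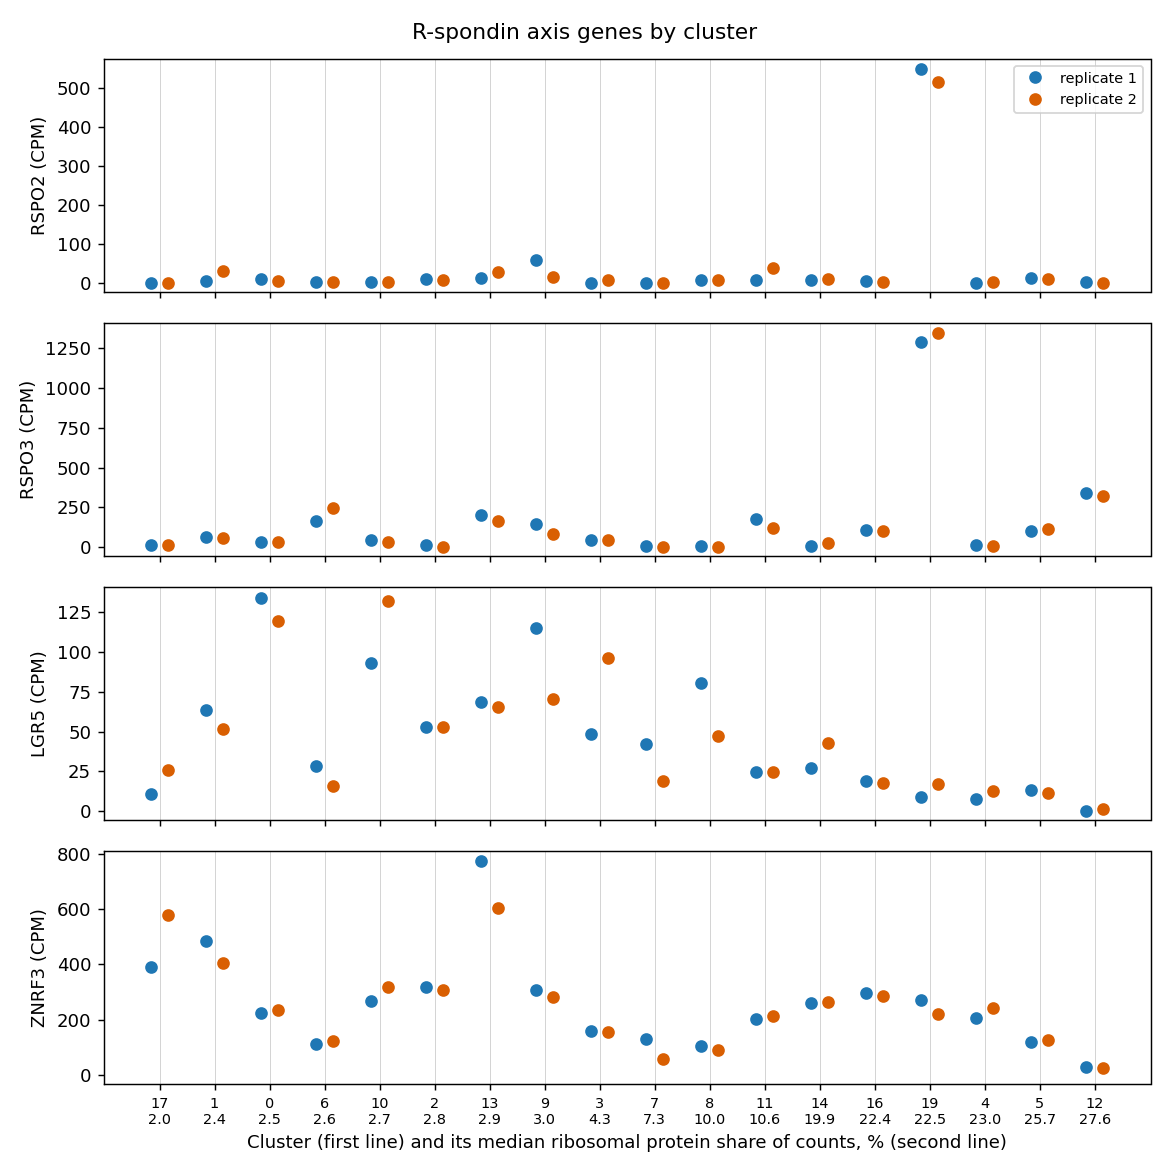
Levels of the members in CPM over the 18 clusters with at least 20 cells in each replicate, ordered by median ribosomal share; points are replicates. RSPO2 and RSPO3 peak in cluster 19 (549 and 517 CPM, 1290 and 1344 CPM), LGR5 in cluster 0 (replicate 1) and cluster 10 (replicate 2), and ZNRF3 in cluster 13.

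Genes with the pattern most like each member were ranked by Pearson's r of log2(CPM + 20) over the 18 clusters, taking the lower r of the 2 replicates, among 7759 genes. RSPO2 was most like RSPO1 (0.92), LIM2 (0.92), SPARCL1 (0.89), TRPM3 (0.82) and OTX2 (0.80), and RSPO3 stood 12th with 0.66. Without cluster 19 these values dropped, for RSPO1 to 0.66 and 0.43 and for RSPO3 to 0.30 and 0.28 in the 2 replicates, so the likeness rests largely on that cluster. RSPO3 was most like GAS1 (0.74), LIM2 (0.68), WNT2B (0.68), KRT8 (0.68) and SPARCL1 (0.67). GAS1 was at 0.65 and 0.66 without cluster 19, but over the 26 clusters of a finer clustering (resolution 2) its lower r was 0.47, below that of LIM2 (0.65). LGR5 was most like RAD54L2 (0.89), ANKRD46 (0.88), PHLPP2 (0.87), ADARB1 (0.86) and IPP (0.86). ZNRF3 was most like TMEM132C (0.92), FOXP1 (0.91), WDR35 (0.90), METTL15 (0.90) and SASH1 (0.90). LGR5 and ZNRF3 were less alike (0.37 and 0.48), and RSPO3 and LGR5 ran opposite (-0.30 and -0.35).

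The cells around each ligand were compared within the SOX2 gate, with RSPO2 and RSPO3 removed from the table because they chose the cells. RSPO3-only cells (132 and 186) were set against cells with neither ligand (632 and 877). Neither LGR5 nor ZNRF3 passed the threshold, where 1.48% of the 10771 genes tested did (0.956% higher and 0.52% lower). LGR5 was at 35.1 and 34.1 CPM in RSPO3-only cells and 64.2 and 50.9 CPM in cells with neither, lower in both replicates (log2 -0.60, 95% interval -1.04 to -0.16, adjusted p = 0.221, edgeR). It passed 0.05 before adjustment in edgeR, which ZNRF3 did not, and DESeq2 called neither gene. ZNRF3 was at 257 and 247 against 303 and 283 CPM (log2 -0.11, 95% interval -0.44 to 0.22, adjusted p = 0.917).

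LMX1A and WNT3A, 2 of the 7 dorsal neural tube genes tested, were called higher in the RSPO3-only cells, and the other 5 did not pass. LMX1A stood at 82.3 and 70.2 against 7.73 and 7.40 CPM (log2 3.41, SE 0.26, adjusted p = 1.85e-36). WNT3A stood at 116 and 123 against 43.2 and 45.4 CPM (log2 1.54, SE 0.18, adjusted p = 1.44e-14). RSPO1 was also called, at 32.9 and 36.8 against 2.13 and 1.72 CPM (log2 4.28, SE 0.43, adjusted p = 1.27e-20), as was FZD10 (log2 1.41, adjusted p = 4.70e-06) among 8 WNT receptors. None of 9 WNT target genes was called. Of 8 ventral genes SHH was called lower, at 31.8 and 21.1 against 87.1 and 96.2 CPM (log2 -1.75, SE 0.23, adjusted p = 2.41e-11).

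Among called genes of at least 50 CPM in the higher group, the largest increases in RSPO3-only cells were those of LMX1A, the keratins KRT18 (log2 2.76) and KRT8 (log2 2.71), PPP2R2B (log2 2.15), a phosphatase subunit gene, and CLSTN2 (log2 1.96). The largest decreases were those of the growth cone gene GAP43 (log2 -1.97), PDZRN4 (log2 -1.85), SHH, and the adhesion genes DSCAM (log2 -1.63) and OPCML (log2 -1.56). KRT8 and KRT18 have processed copies in mammalian genomes, so their counts are less certain. Cluster 19 supplied 10 of the 132 and 29 of the 186 RSPO3-only cells. RSPO3-only cells had median UMIs of 6295 and 7859 against 5388.5 and 6371, and median ribosomal shares of 6.61% and 16.2% against 4.097% and 6.06%, whose part in the result was not tested. The number of genes called fell from 159 to 68 without the replicate block and to 9 with DESeq2. Scaled by library totals, 44.1% of the called genes were higher in RSPO3-only cells, against 64.8% with TMM.

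RSPO2-only cells were few, with 8 and 9 cells of 46918 and 83382 UMIs in sum. Neither LGR5 nor ZNRF3 was called against RSPO3-only cells, where 0.371% of genes were (0.204% higher and 0.167% lower), or against cells with neither, where 0.353% were (0.232% and 0.121%). Neither of them reached an unadjusted p of 0.05 and DESeq2 called neither. The intervals were wide, from -2.95 to 0.29 for the log2 difference of LGR5 from cells with neither. In simulated counts 9% and 12% of 2-fold changes were recovered in these 2 contrasts, so a gene not called is not shown to be alike. The muscarinic receptor gene CHRM3 was called in both contrasts (log2 6.46 and 4.02), with UMIs in 2 of 8 and 4 of 9 cells. SVIL (log2 2.84 and 2.13) and the glutamate receptor gene GRIA4 (log2 2.83 and 2.34) were also called in both. ANXA5 (log2 2.31) and CADM2 (log2 2.17) were called against RSPO3-only cells, and PDGFD (log2 3.20) and S100A11 (log2 2.34) against cells with neither. These calls rested on single cells in part. PDGFD had 3 and 6 UMIs, in 2 cells of each replicate. S100A11 had 7 UMIs in 1 cell of replicate 1 and 41 UMIs in replicate 2, 22 of them in 1 cell, and 1 cell also held 22 of the 41 CADM2 UMIs of replicate 2.

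The lowest genes in RSPO2-only cells were without a single UMI there. By the lower end of the exact counting interval over both libraries, HS6ST2 was at least 4.89-fold lower than in RSPO3-only cells. The mitotic gene TPX2 was at least 3.98-fold and 4.59-fold lower than in RSPO3-only cells and in cells with neither. ASPM, another mitotic gene, was at least 3.15-fold and 3.99-fold lower, SNX13 2.94-fold and 3.07-fold, and CA3 2.48-fold and 3.71-fold. CDCA2 was at least 3.01-fold lower than in cells with neither. These limits leave out variation between the 8 and 9 RSPO2-only cells, which was not tested. The kinetochore gene CENPF had 8 UMIs (log2 -3.25 and -2.89). WNT3A had 1 UMI, which is 15.7-fold lower than in RSPO3-only cells with a counting interval of 2.79 to 621. In the cells of at least 2 RSPO2 UMIs, with or without RSPO3, WNT3A turned to the higher side (log2 0.91, adjusted p = 0.0183), and SNX13 had log2 values of 0.16 and 0.22 in the RSPO2 contrasts. On library totals 69.8% of the genes called against RSPO3-only cells were higher, against 55.0% with TMM.

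Since most strong RSPO2 cells also held RSPO3, a further comparison was chosen after seeing these data: SOX2-gated cells with at least 2 RSPO2 UMIs, with or without RSPO3 (18 and 28 cells), against cells with no RSPO2 UMI. LGR5 and ZNRF3 were again not called, where 2.7% of 10719 genes were against RSPO3-only cells (1.86% higher and 0.84% lower) and 5.43% against cells with neither (3.42% and 2.01%). Against cells with neither the log2 differences were -0.48 for LGR5 (95% interval -1.30 to 0.33, adjusted p = 0.556) and -0.14 for ZNRF3 (-0.55 to 0.26, adjusted p = 0.751). Against RSPO3-only cells they were 0.12 (-0.79 to 1.03) and -0.03 (-0.45 to 0.39).

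Of 7 dorsal neural tube genes tested, 3 were called higher in the strong RSPO2 cells than in RSPO3-only cells (LMX1A, WNT3A and BAMBI) and PAX3 was called lower. LMX1A stood at 334 and 255 CPM in them, against 82.3 and 70.2 CPM in RSPO3-only cells (log2 1.96, SE 0.22, adjusted p = 5.21e-07). RSPO1 stood at 116 and 104 against 32.9 and 36.8 CPM (log2 1.67, SE 0.34, adjusted p = 0.00310). WNT3A stood at 186 and 240 against 116 and 123 CPM (log2 0.91, adjusted p = 0.0183). BAMBI, a pseudoreceptor of BMP signalling, stood at 116 and 182 against 37.3 and 29.97 CPM (log2 2.31, adjusted p = 1.23e-05). PAX3, a transcription factor of the dorsal neural tube, stood at 101 and 19.3 against 149 and 123 CPM (log2 -1.46, SE 0.37, adjusted p = 0.0231). Among genes of the other lists OTX2 stood at 186 and 189 against 17.5 and 14.3 CPM (log2 3.63, SE 0.32, adjusted p = 7.42e-09), and SIX6, another anterior transcription factor, at 101 and 50.3 against 19.7 and 19.1 CPM (log2 1.86, adjusted p = 0.00947). Each was ordered alike in both replicates.

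The ventral and cell cycle genes that were called were lower in strong RSPO2 cells. Against RSPO3-only cells these were FOXA2 of 7 ventral genes and CENPF of 14 cell cycle genes, where 0.84% of all genes were called lower. Against cells with neither they were 2 of 7 and 5 of 14, where 2.01% of all genes were called lower. FOXA2, a floor plate transcription factor, stood at 0 and 30.9 CPM in strong RSPO2 cells, at 158 and 252 CPM in RSPO3-only cells and at 315 and 299 CPM in cells with neither (log2 -3.32 and -3.80, adjusted p = 7.89e-05 and 2.37e-06). SHH had 1 UMI, 35.9-fold lower than in cells with neither with a counting interval of 6.43 to 1419. The 5 cell cycle genes included CDK1 (log2 -2.13) and CCNB2 (log2 -1.98). Of 9 WNT target genes SP5 (log2 2.88) and APCDD1 were higher and LEF1 was lower (log2 -1.44), at 38.8 and 58.0 against 163 and 152 CPM.

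By size, TRPM3 gave the largest increase in both contrasts among called genes of at least 50 CPM in strong RSPO2 cells, at 1203 and 506 CPM against 1.10 and 2.04 CPM in RSPO3-only cells and 3.46 and 2.06 CPM in cells with neither (log2 8.80 and 8.29). TTR, 1 of the 2 endoderm markers tested and the one called, stood at 109 and 363 against 9.87 and 9.53 CPM in RSPO3-only cells (log2 4.80). DLK1, a Notch-related ligand gene, stood at 194 and 143 against 1.10 and 4.09 CPM (log2 5.80). FOXP2 was lower, at 77.6 and 81.2 against 597 and 666 CPM (log2 -2.96). The strong RSPO2 cells had median UMIs of 7586 and 9814.5 and median ribosomal shares of 4.62% and 22.5%. The part of depth and of the ribosomal share in these differences was not tested.

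**Figure D5:**
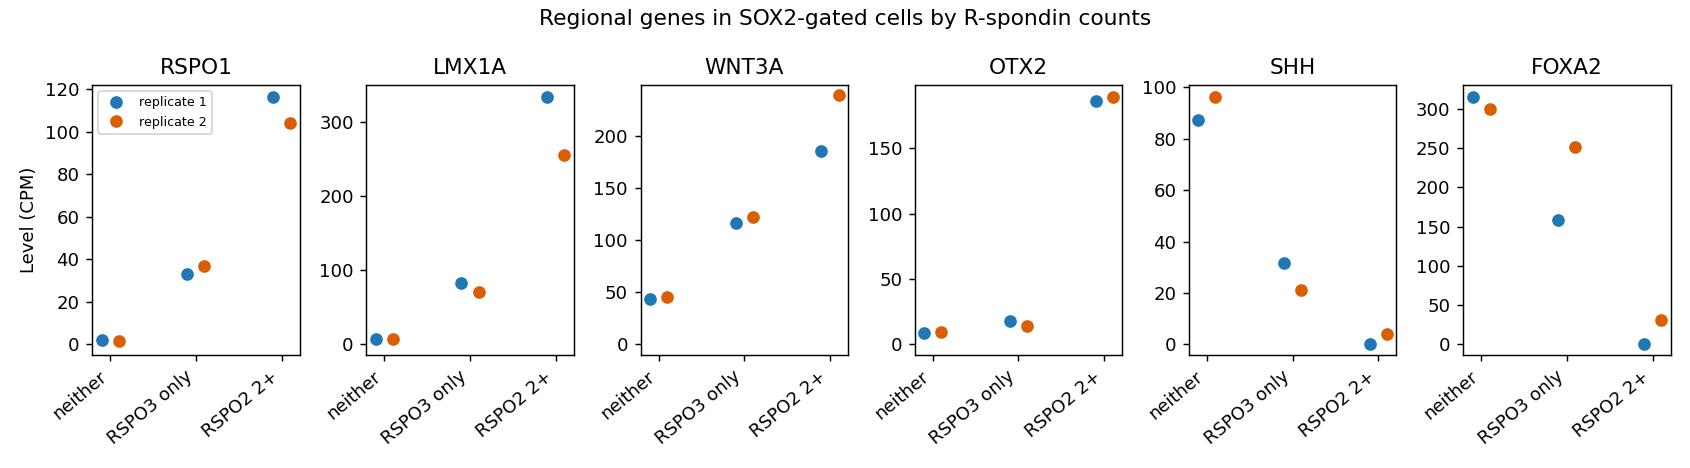
Levels in CPM of RSPO1, LMX1A, WNT3A, OTX2, SHH and FOXA2 in SOX2-gated cells with neither ligand, with RSPO3 only, and with at least 2 RSPO2 UMIs; points are replicates. LMX1A steps from 7.73 and 7.40 over 82.3 and 70.2 to 334 and 255 CPM, and FOXA2 from 315 and 299 over 158 and 252 to 0 and 30.9 CPM.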

How the data were processed

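Single-cell RNA was measured in 2 samples of 1 group. The authors deposited unnormalized whole-number UMI counts; per the submitters' processing notes, Cell Ranger, R 4.1.2, Seurat 4.3.0 and the bosTau9 build were used. The table held 4437 cells, 11182089 and 15427708 UMIs and 17846 genes (499 without a count); 17337 symbols matched RefSeq names. The samples shared 6 barcodes. No doublet caller was run; an alternative left out the deepest 5% of cells.

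Counts were summed per gate and replicate. CPM is a count scaled to the total of its sum. Tests were edgeR 4.0.16 quasi-likelihood fits (R 4.3.3, TMM, filterByExpr, robust, replicate as a block). P-values were adjusted by Benjamini-Hochberg over the whole table at a threshold of 0.05. Simulated counts were drawn with the fitted spread, so they do not check that spread. In them 100%, 85% and 99% of 2-fold changes were recovered for SOX2 against neuron, collagen VI and ungated cells. For RSPO2-only cells against RSPO3-only cells and cells with neither, 9% and 12% were recovered, and 58% and 57% of 4-fold changes. Replicate numbers pair the sums because gates of 1 number come from 1 suspension. Residual degrees of freedom were 3 and 2, and the spread was pooled over genes, in the ligand fit entirely. Alternatives were DESeq2 1.42.0, other scalings, filters, gates and depths, and each replicate left out. Clustering used scanpy 1.11.5 and igraph 0.11.9 (2000 variable genes, 30 components, 15 neighbours, resolution 1). Intervals and limits cover counting error only. Named list genes are the called ones with the 2 largest changes per list, and in ligand contrasts the 5 highest and 5 lowest called genes at 50 CPM or more in the higher group; genes described in cluster 19, and others outside this rule, were chosen after their values were seen. Members and lists were chosen with earlier results of these data known.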

Additional observations from a re-analysis of the deposited data

How the results depend on the processing

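Every called member contrast kept its direction under every alternative run, except RSPO3 between the SOX2 and neuron gates. RSPO3 in the SOX2 over neuron contrast was log2 -0.32 without the replicate block (adjusted p = 0.0802), -0.10 in cells of 10% or more ribosomal protein counts, -0.10 with 2 or more SOX2 UMIs, -0.20 with all 3 neuron genes, -0.18 on library totals (an alternative added after seeing the data) and 0.086 without cells of SOX2 and neuron genes; none was called. RSPO2 over the neuron gate lost its call without the deepest cells (1.23) and in ribosomal-rich cells (1.64), as it did over the collagen VI gate (10.03 and 9.31, with no or nearly no UMI in the latter). RSPO2 became called between the neuron and collagen VI gates with DESeq2 (3.48) and without a filter (3.69). Over ungated cells it became called without a filter (1.14), with 2 SOX2 UMIs (1.38), all 3 neuron genes (1.10) and no SOX2 and neuron cells (1.09). Of these settings over ungated cells, only that of 2 SOX2 UMIs changed the cells compared. LGR5 became called over the neuron gate with all 3 neuron genes (0.58) and on library totals (0.37), and in ribosomal-rich cells LGR5 (-1.29) and ZNRF3 (0.97) did so over ungated cells. Leaving out a replicate gave, as values without a test, -0.34 to -0.33 for RSPO3 and 0.53 to 0.59 for ZNRF3 (SOX2 over neuron), 3.27 to 10.30 for RSPO2 (SOX2 over collagen VI), 1.41 to 1.44 for ZNRF3 (neuron over collagen VI), 0.64 to 0.73 for RSPO3 and -0.0099 to 0.048 for ZNRF3 (SOX2 over ungated). For LGR5 in RSPO2-only cells it gave -9.48 to 0.51 against RSPO3-only cells and -9.94 to -0.28 against neither, since the 9 cells of replicate 2 held no LGR5 UMI. Counts of called genes were 3597 (DESeq2) and 2327 (ribosomal-rich cells) for SOX2 against neuron, 3694 and 4109 without the deepest cells for SOX2 and neuron against collagen VI, and 1567 (DESeq2) and 1596 (no block) against ungated cells. In the ligand contrasts they were 13, 20 and 9 with DESeq2, 7, 7 and 68 without the block, 18 and 104 with 2 SOX2 UMIs (RSPO2-only and RSPO3-only against neither), and 289 and 582 with the added choice of RSPO2 cells. The RSPO3 share in the collagen VI gate exceeded that of the SOX2 gate by 31.8 points at 2000 UMIs, 40.8 at 4000 and 58.5 unthinned, and LGR5 gave -9.77, -12.6 and -15.8. Of 40 likeness values under a finer clustering or a smaller pseudocount, 29 moved by more than the SD of the replicates. Reversed single genes were PAX8 (-2.02 to 0.065, SOX2 over collagen VI, without a replicate), CENPF (-0.082, neuron over collagen VI, all 3 neuron genes), LGR4 (0.023, neuron over collagen VI, library totals), MCM5 (-0.067), PCNA (-0.17) and RBFOX3 (0.49) over ungated ribosomal-rich cells, and, with the added RSPO2 cells, WNT3A (0.91) against RSPO3-only cells and SNX13 (0.16 and 0.22). Apart from those that leave out cells or UMIs by construction, the cause was not tested.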

Other observations

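LGR5 was also found in cells whose UMIs were at least 2% globin. These cells numbered 10 and 26, and 8 and 19 of them were ungated, with median UMIs of 25658.5 and 21691. LGR5 UMIs were in 7 of the 8 and 9 of the 19 ungated globin-rich cells, at 100.5 and 117 CPM. Of the 49 LGR5 UMIs in replicate 2, 1 cell held 22, and in replicate 1 a cell held at most 5 of 20. Depth raised these shares. Over all cells rich in globin or placental counts the LGR5 share fell from 40.0% and 40.6% to 11.8% and 14.3% at 2000 UMIs per cell. The SOX2-gated share was then 11.02% and 9.86%. RSPO2 had no UMI in the ungated globin-rich cells. RSPO3 had no UMI there in replicate 1 and 1 UMI in replicate 2, and ZNRF3 was at 0 and 11.9 CPM. In the 10 and 6 cells of at least 2% placental counts LGR5 had no UMI, at median UMIs of 6834 and 6841. The ungated globin-rich cells held LGR5 with little ZNRF3, whereas SOX2-gated cells, with which they share no cell, held 58.1 and 46.9 CPM of LGR5 with 296 and 273 CPM of ZNRF3. These cells were few and were chosen by their globin counts, and no test was made.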
